A study of Drosophila melanogaster with 16 samples.

Results

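The licensing genes of DNA replication were taken as the 10 genes whose symbols in the deposited table are exactly Mcm2, Mcm3, dpa, Mcm5, Mcm6, Mcm7, Orc1, Orc2, dup and geminin, out of 9977 genes listed. All 10 were found. Before a cell copies its DNA, the origin recognition complex, to which Orc1 and Orc2 belong, binds replication origins. Together with Cdc6, the loading factor dup (the fly Cdt1) then places the ring-shaped Mcm2-7 helicase on the DNA, where it waits for S phase. Geminin binds dup and blocks further loading, so that each origin is used once per cell cycle, and in dividing cells much of this control acts on the proteins rather than on their transcripts.

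Transcript levels were measured by RNA-seq of Drosophila S2 cells, a proliferating line of embryonic origin with features of plasmatocytes, the macrophage-like blood cells of the fly. Cells were soaked in serum-free medium with 40 µg/ml of double-stranded RNA (dsRNA) against imp, which encodes an RNA-binding protein, or, as the control, against luciferase, a gene that flies lack. Medium with serum was added after this first soak. Both groups received further dsRNA daily in serum-free medium and were harvested on day 3, and poly(A) RNA was sequenced. Each treatment had 3 libraries, and the triplicates were made on different days, so that a replicate number is taken as a day with 1 library of each treatment. Fragments named Imp 1 and Imp 2 are described for the imp dsRNA, and the labels do not say which of them a library received. The comparison asks whether steady-state mRNA levels differed after Imp depletion. It rests on 1 cell line and a transient, partial knockdown.

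The libraries held 1081882 to 5463535 counts, with imp dsRNA replicate 2 the shallowest. Levels are given as CPM, the counts of a gene per 1000000 counts of its library, after scaling of the library sizes by the trimmed mean of M-values (TMM). The Imp transcript stood at 233, 324 and 455 CPM in imp dsRNA replicates 1, 2 and 3 and at 660, 738 and 814 CPM in the luciferase dsRNA libraries, so the groups did not overlap. Its log2 fold change was -1.18 (SE 0.18), and its edgeR adjusted p (Benjamini-Hochberg) of 0.113 missed the threshold of 0.05. Across the alternatives that adjusted p ran from 1.57e-12 (edgeR without replicate 3) to 1 (edgeR without the replicate block), and it also passed by DESeq2 (0.00018) and by edgeR without the filter on low counts (2.98e-06). Of 10 plasmatocyte markers, 6 had at least 10 counts in every library, and nimC1 never exceeded 5 counts. Their summed level was 7145 to 10870 CPM after imp dsRNA and 5525 to 7762 CPM after luciferase dsRNA. The neuronal markers elav, Syt1, nSyb and brp summed to 94.7 to 133 and 88.7 to 123 CPM. The germline markers summed to at most 4.82 CPM and the muscle markers to at most 14.9 CPM, and Yp1, the only fat body marker matched, reached at most 1.46 CPM. The part of these levels in the results below was not tested.

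All 10 licensing genes were expressed in every library, with 20 to 1628 counts, and all passed the filter on low counts. None passed the test between treatments, for which the edgeR quasi-likelihood adjusted p (Benjamini-Hochberg over 6526 genes) was 0.999 for each. By that rule 0% of all tested genes were called. An unadjusted p under 0.05 was found for 188 genes, and limma-voom called 0 genes and DESeq2 called 1 gene. The fitted log2 fold change was below 0 for all 10 licensing genes, while 51.5% of all tested genes had a value below 0. This is a description only, since the 10 genes were chosen with earlier results of these data known. The median log2 fold change was -0.16 over the 10 genes and -0.18 over the 6 helicase genes, against -0.0067 over all genes tested. Taken without sign, the licensing and helicase medians lay not far above 0.13, the median absolute log2 fold change over all genes. In extracts of a whole culture, fewer cycling cells and less licensing transcript per cell cannot be told apart.

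**Figure D1:**
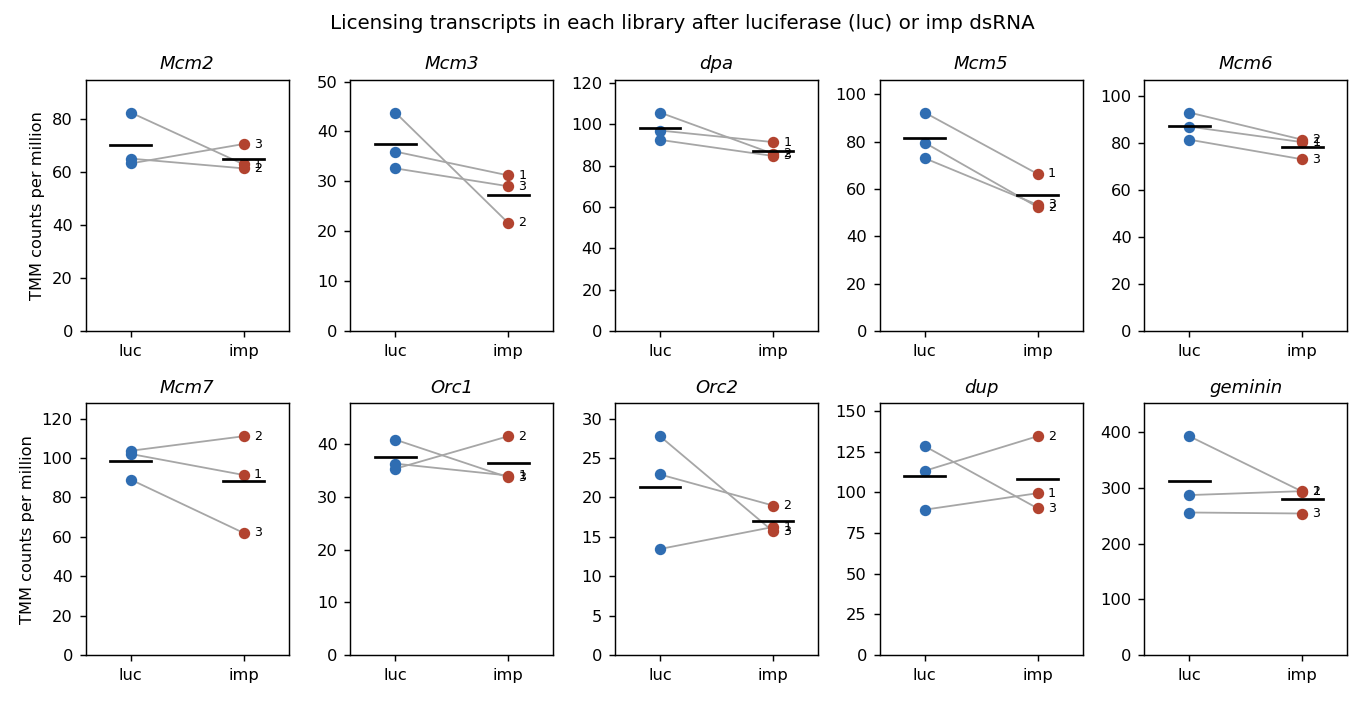
TMM-scaled level (CPM) of each licensing gene in each of the 6 libraries, as points by treatment with the replicate number beside them and the mean of 3 as a bar. The imp dsRNA points of Mcm3, dpa, Mcm5 and Mcm6 lie below all luciferase dsRNA points, those of Mcm6 barely, and the points of the other 6 genes overlap.

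The Mcm2-7 subunits form the replicative helicase, each of them an ATPase of the same family. Mcm5 had the lowest log2 fold change of the 10 genes, and it did not pass the adjusted threshold. It was counted at 66.4, 52.4 and 53.3 CPM after imp dsRNA and at 92.3, 79.6 and 73.0 CPM after luciferase dsRNA in replicates 1, 2 and 3. All imp dsRNA libraries lay below all luciferase dsRNA libraries, and each day showed the difference, with log2 ratios of -0.48, -0.60 and -0.45. The fitted log2 fold change was -0.51 (SE 0.17, 95% interval -0.87 to -0.14), a level 29.6% lower. Mcm5 was the only licensing gene with an unadjusted p under 0.05 in edgeR's quasi-likelihood test, and its adjusted p was 0.999. By the same rule 1.26% of all tested genes were lower.

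Mcm3 was the least abundant helicase transcript, with 24 to 173 counts per library. It was measured at 31.2, 21.7 and 29.0 CPM after imp dsRNA and at 36.0, 43.8 and 32.6 CPM after luciferase dsRNA. The groups did not overlap, but replicate 2 carried most of the difference, with a log2 ratio of -1.01 against -0.21 and -0.17 on the other days. In that imp dsRNA library the level rested on 24 counts, for which the exact Poisson 95% interval is 15.4 to 35.7 counts and covers counting error only. The fitted log2 fold change was -0.42 (SE 0.22, 95% interval -0.91 to 0.064).

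The gene dpa, in full disc proliferation abnormal, encodes the subunit Mcm4. Its level was 91.4, 85.8 and 84.7 CPM after imp dsRNA and 97.0, 106 and 92.5 CPM after luciferase dsRNA. Every imp dsRNA library was lower than every control library, by a narrow margin, with a fitted log2 fold change of -0.17 (SE 0.16, 95% interval -0.52 to 0.18). Mcm6 stood at 80.2, 81.3 and 73.0 CPM after imp dsRNA and at 86.8, 92.8 and 81.3 CPM after luciferase dsRNA. Its groups were barely separated, with the highest imp dsRNA library at 81.28 CPM and the lowest control library at 81.29 CPM, and its log2 fold change was -0.15 (SE 0.16, 95% interval -0.50 to 0.20).

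Mcm2 and Mcm7 overlapped between treatments. Mcm2 was measured at 62.9, 61.4 and 70.6 CPM after imp dsRNA and at 82.5, 65.1 and 63.3 CPM after luciferase dsRNA. It was lower after imp dsRNA on the days of replicates 1 and 2 and higher on that of replicate 3, and its log2 fold change was -0.12 (SE 0.18). Among the helicase genes Mcm7 varied most within a treatment, at 91.4, 111 and 62.0 CPM after imp dsRNA, beside 102, 104 and 89.1 CPM after luciferase dsRNA. The highest and the lowest Mcm7 level of all 6 libraries were both imp dsRNA libraries, and the log2 fold change was -0.18 (SE 0.17, 95% interval -0.56 to 0.19).

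**Figure D2:**
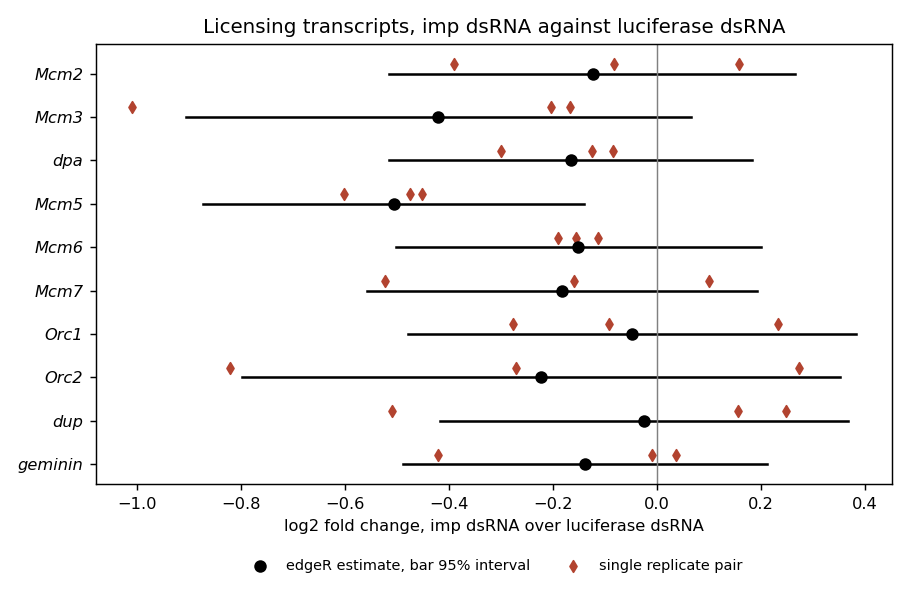
Fitted log2 fold change of each licensing gene (imp dsRNA over luciferase dsRNA, edgeR) with its 95% interval, and the log2 ratio of each of the 3 replicate pairs as small points. Of the 10 intervals, that of Mcm5 alone excludes 0, before adjustment for the number of genes tested.

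Of the 10 licensing genes, 4 (Mcm3, dpa, Mcm5 and Mcm6) were lower after imp dsRNA in all 3 pairs, where 12.2% of all tested genes were, and the same 4 genes had non-overlapping groups, as had 3.39% of all tested genes. All 4 are helicase subunits. The 10 genes were chosen with earlier results of these data known, so these shares are a description and not a test. The count depended on the scaling in Mcm6, which overlapped with DESeq2 size factors, leaving 3 genes beside 2.83% of all genes. With total counts alone Mcm2 was separated in place of Mcm6, beside 4.61% of all genes. The count of genes lower in all 3 pairs was then 6, with Mcm2 and geminin added, beside 15.4% of all genes. Without replicate 2 it was 7, with Mcm7, Orc1 and geminin added, beside 20.5% of all genes lower in both remaining pairs. Without replicate 1 it was 5, with Orc2 added, beside 25.2%, and without replicate 3 it was 5, with Mcm2 added, beside 29.2%. Non-overlapping groups were found for 5 genes with replicate 1, 2 or 3 left out, beside 16%, 10.8% and 14.3% of all genes.

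The 6 helicase transcripts together gave 424, 414 and 373 CPM after imp dsRNA and 497, 491 and 432 CPM after luciferase dsRNA. This sum was lower on each of the 3 days, with log2 ratios of -0.23, -0.25 and -0.21, equal to 14.7%, 15.7% and 13.7%. The likeness of the days depended on the scaling, since with total counts alone the log2 ratios ran from -0.38 to -0.15. It is given as a description of genes that were chosen with earlier results known, without a test. Subunits that differed in opposite directions on a day, such as Mcm7 and Mcm3 on the day of replicate 2, offset each other in it.

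Among the recognition subunits, Orc1 is the ATPase subunit that also contacts Cdc6, and Orc2 belongs to the core of the complex. Orc1 was measured at 34.1, 41.5 and 33.7 CPM after imp dsRNA and at 36.3, 35.4 and 40.9 CPM after luciferase dsRNA. The treatments overlapped and their means were 36.4 ± 4.41 and 37.5 ± 2.95 CPM (SD, n = 3 each), with a log2 fold change of -0.049 (SE 0.20, 95% interval -0.48 to 0.38). Orc2, the lowest of the 10 in CPM, was at 16.2, 19.0 and 15.7 CPM after imp dsRNA and at 13.4, 22.9 and 27.8 CPM after luciferase dsRNA. The control libraries of Orc2 spanned a range that contained all 3 imp dsRNA libraries. Its pair ratios pointed both ways, at 0.27, -0.27 and -0.82 on the log2 scale, and the fitted value of -0.22 had the widest interval of the 10 genes (SE 0.27, 95% interval -0.80 to 0.35).

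The loading factor dup was at 99.5, 135 and 90.2 CPM after imp dsRNA and at 89.4, 113 and 128 CPM after luciferase dsRNA. Its means of 108 ± 23.4 and 110 ± 19.7 CPM (SD, n = 3 each) were the closest of any licensing gene in relative terms, with a log2 fold change of -0.024 (SE 0.18, 95% interval -0.42 to 0.37).

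Geminin, the inhibitor of dup, was the most abundant licensing transcript. Its level was 294, 294 and 254 CPM after imp dsRNA and 393, 287 and 256 CPM after luciferase dsRNA. Luciferase dsRNA replicate 1 stood above the other 5 libraries, whose levels overlapped between treatments. The log2 ratio was -0.42 on the day of replicate 1 and 0.035 and -0.011 on the other days, and the fitted log2 fold change was -0.14 (SE 0.16, 95% interval -0.49 to 0.21).

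Because geminin acts by binding dup, the ratio of their counts was compared within each library. In the imp dsRNA libraries the ratio was 2.95, 2.18 and 2.81, and in the luciferase dsRNA libraries it was 4.39, 2.53 and 1.99. The highest and the lowest ratio were both found in control libraries. The pair differences on the log2 scale were -0.57, -0.21 and 0.50, with a mean of -0.097 ± 0.55 (SD, n = 3 pairs; exact two-sided sign-flip permutation test, p = 0.75, where 0.25 is the smallest p that 3 pairs allow). A transcript ratio says nothing of the protein ratio, which changes through the cell cycle.

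Levels of different genes were compared per kilobase of exon, with lengths from the BDGP6 annotation. Geminin, with a short transcript, had a median over the 6 libraries of 274 CPM per kb (240 to 371) and lay at the 95.3 percentile of tested genes with a length. Mcm7 followed with a median of 39.5 CPM per kb, then dup with 33.9, dpa with 29.9, Mcm6 with 29.1, Mcm5 with 28.4 and Mcm2 with 22.1 CPM per kb. Mcm3 had a median of 11.6 CPM per kb, Orc1 of 11.4 and Orc2 of 8.82, all below the median of 20.3 CPM per kb over tested genes. Geminin exceeded Mcm7 in all 6 libraries, and Mcm2 exceeded Mcm3 in all 6. No other neighbours in this order kept it in all 6 libraries, so Mcm7, dup, dpa, Mcm6, Mcm5 and Mcm2 form a middle range without a firm order of adjacent genes, and Mcm3, Orc1 and Orc2 a low one.

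**Figure D3:**
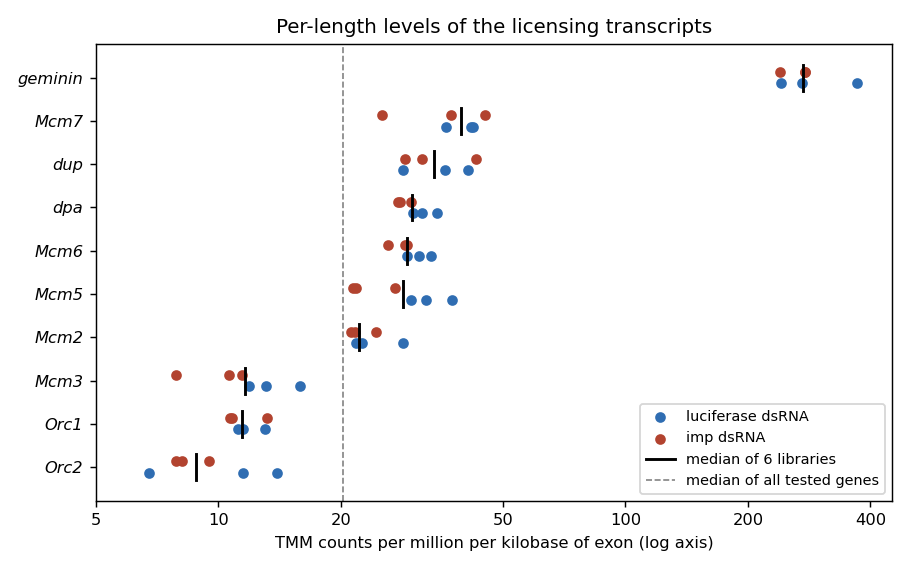
TMM-scaled level (CPM per kilobase of exon) of each licensing gene on a log axis, ordered by the median, with each of the 6 libraries as a point. Geminin lies apart at 240 to 371 CPM per kb, and Mcm3, Orc1 and Orc2 lie lowest.

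The helicase ring holds each subunit in equal number, whereas the levels of the transcripts per kb were unequal. The highest helicase median, that of Mcm7, was 3.4 times the lowest, that of Mcm3, and 1.78 times the lowest when Mcm3 was left out. Within single libraries the ratio of the highest to the lowest ran from 2.61 to 5.74. Mcm7 made up 18.6% to 29.7% of the summed helicase level per kb and Mcm3 made up 5.16% to 8.82%.

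The spread over the 6 libraries, which includes any difference between the treatments, differed between the genes. The coefficient of variation of the CPM was 8.11% for Mcm6, 8.34% for dpa, 9.21% for Orc1 and 11.7% for Mcm2. Geminin, dup and Mcm7 followed at 17.1%, 17.7% and 18.6%, and Mcm5, Mcm3 and Orc2 were the most variable at 22.3%, 22.7% and 27.7%. Orc2 and Mcm3 were also the genes with the fewest counts. The spread of Mcm5 includes the gap between its means of 57.4 ± 7.81 CPM after imp dsRNA and 81.6 ± 9.80 CPM after luciferase dsRNA (SD, n = 3 each).

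Differences between the 3 days were tested in the same edgeR fit. None of the 10 genes was called, with adjusted p-values (Benjamini-Hochberg, edgeR) from 0.442 for Mcm7 to 0.951 for Orc1, and 3.17% of all tested genes were called. An unadjusted p under 0.05 was also found for none of the 10 genes and for 950 of all tested genes (14.6%). Culture day and library preparation day cannot be told apart.

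Across the 6 libraries, the 10 genes did not vary as 1 group. Of their 45 pairs, 32 had a Pearson correlation of log2 CPM above 0, with a median of 0.24 and a range of -0.76 to 0.92. The helicase genes mostly varied together, with 14 of 15 pairs above 0 and a median of 0.54. For deviations from the treatment means, 11 of 15 pairs were above 0, with a median of 0.35. Orc1, Orc2 and dup also varied together, with all 3 pairs above 0 and a median of 0.79, which was 0.83 for the deviations. Between these sets only 9 of 18 pairs were above 0, with a median of -0.013, and for the deviations 4 of 18 were, with a median of -0.35. Geminin was positively correlated with all 6 helicase genes (median 0.52) and negatively with Orc1, Orc2 and dup (median -0.38). For the deviations, 5 of its 6 values with helicase genes were above 0 (median 0.45), and 0 of 3 with Orc1, Orc2 and dup (median -0.43). Luciferase dsRNA replicate 1 had the highest geminin level (393 CPM) and the lowest levels of dup (89.4 CPM) and Orc2 (13.4 CPM). The negative values of geminin with Orc1, Orc2 and dup may therefore rest largely on that library, and correlations without it were not computed. These are descriptions over 6 libraries that share 3 days, 2 treatments and 1 scaling, so that a library's depth and its scaling factor enter every pair. The share of pairs above 0 among all tested genes was not computed.

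**Figure D4:**
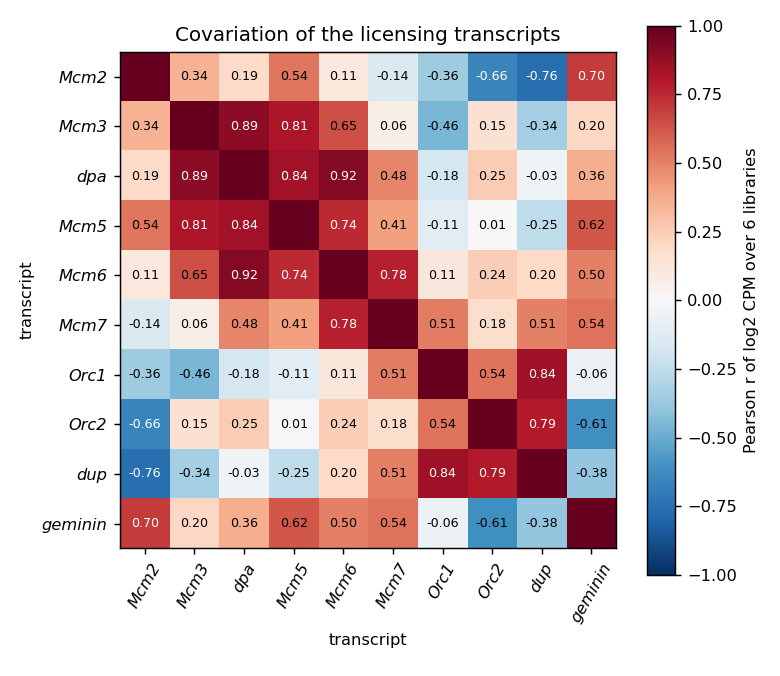
Pearson correlation of log2 CPM over the 6 libraries for each pair of licensing genes, from -1 to 1 by colour. Orc1, Orc2 and dup have positive values with each other (0.54 to 0.84), and their values with geminin are below 0.

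The mean standardised profile of the 10 genes was -0.31, -0.11 and -0.90 in imp dsRNA replicates 1, 2 and 3 and 0.49, 0.59 and 0.24 in the luciferase dsRNA libraries. The lowest value belonged to imp dsRNA replicate 3. The tested genes whose log2 CPM followed this profile most closely over the 6 libraries were rempA (Pearson r = 0.99), which encodes an intraflagellar transport protein, CG9330 (r = 0.98) and CG7839 (r = 0.97). In rempA the level was 19.8, 22.6 and 16.5 CPM after imp dsRNA and 25.4, 26.9 and 24.3 CPM after luciferase dsRNA. High values of r are found when 6526 genes are searched over 6 points, and they say nothing of shared control.

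Other genes of DNA replication were described from 6 lists, in which 53 genes are named, 50 matched a symbol and 48 were tested. None passed the edgeR adjusted threshold, where 0% of all genes did, and none had an unadjusted p under 0.05. The lists too were chosen with earlier results of these data known. Of the 48, 32 had a fitted log2 fold change below 0 and 16 above 0, with a median of -0.11. Lower levels in all 3 pairs were found for 10 of them (20.8%), beside the 12.2% of all tested genes given above, and higher levels in all 3 pairs for 2, beside 11.2% of all tested genes.

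The 4 tested genes of the remaining recognition and loading factors were all below 0, from -0.17 (SE 0.21) for Cdc6, which loads the helicase with dup, to -0.087 for Orc4. Of the 12 genes that turn the loaded helicase into an active one, 7 were below 0 and 5 above. The lowest was Psf1 at -0.29 (SE 0.40) and the highest Psf3 at 0.40 (SE 0.29), which encode subunits of the same GINS complex. Psf1 rested on as few as 5 counts, in imp dsRNA replicate 3. Among the 8 genes of DNA polymerases and primase, 7 were below 0. The lowest, CG12018, a small subunit of polymerase delta, had a log2 fold change of -0.57 (SE 0.27), and the highest, DNApol-alpha73, had 0.14 (SE 0.24).

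The sliding clamp, clamp loader, single-strand binding and ligase genes gave 7 values below 0 and 3 above, from RfC3, a clamp loader subunit, at -0.32 (SE 0.24) to mus209, the clamp PCNA, at 0.17 (SE 0.19). Of the 5 genes of nucleotide supply, 4 were below 0, with thymidylate synthase (Ts) lowest at -0.27 (SE 0.17) and dUTPase highest at 0.34 (SE 0.17). The genes of E2F and Rb, which control S phase transcription, and of Cdt1 turnover gave 6 of 9 values above 0, with a median of 0.07. In this list l(2)dtl, a factor for Cdt1 degradation, had the lowest value at -0.36 (SE 0.19) and pic, the fly DDB1, the highest at 0.24 (SE 0.17). None of these genes passed the edgeR test, and the lowest adjusted p (Benjamini-Hochberg, edgeR) was 0.999.

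**Figure D5:**
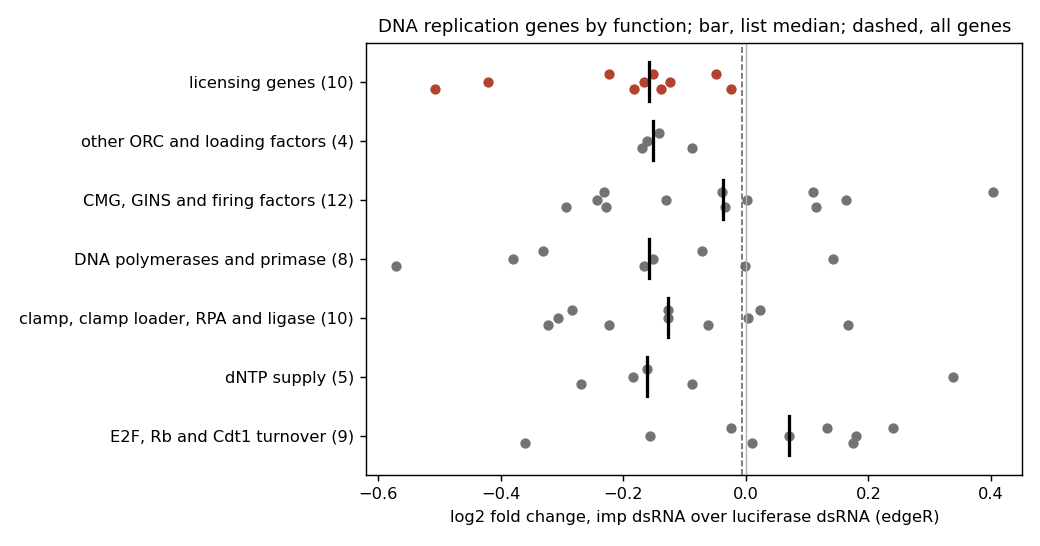
Fitted log2 fold change (imp dsRNA over luciferase dsRNA, edgeR) of every tested gene in the licensing set and in 6 lists of other replication genes, with the median of each list as a bar. The medians run from -0.16 for the polymerases and for nucleotide supply to 0.07 for E2F, Rb and Cdt1 turnover, with the licensing genes at -0.16.

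By the BDGP6 annotation, the licensing genes lie on chromosome arms 2R, 3L and 3R and on the X chromosome. The helicase genes are Mcm2 (3R, 8264970 to 8267924), Mcm3 (X, 5323855 to 5326738), dpa (2R, 7496702 to 7500145), Mcm5 (3R, 10788524 to 10791150), Mcm6 (X, 6674387 to 6677176) and Mcm7 (3L, 8891596 to 8894310). Orc1 lies on 2R (7522437 to 7525716), as do dup (15376619 to 15380988) and geminin (6655463 to 6656594), and Orc2 lies on 3R (13964885 to 13967075). No exon of the 10 genes overlaps an exon of another gene on the same strand, and Mcm3, Mcm7, Orc1, Orc2 and dup have exons that overlap a gene on the opposite strand. The authors counted reads by strand, so that such neighbours are kept apart in the counts.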

How the data were processed

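RNA-seq libraries of S2 cells treated with imp or luciferase dsRNA were analysed, and the other 10 samples (iCLIP, PAR-iCLIP, RIP-seq and their inputs) are not analysed here. The authors demultiplexed reads with CASAVA 1.8.2, mapped them with BWA-PSSM to dm3 together with the yeast genome, retained confident alignments and counted reads that fell on a single gene and its strand. They deposited raw counts per gene. For BWA-PSSM and DESeq, versions were not given in the sources used here. A second deposited table with the authors' group means, fold change and p-values served only to pair identifiers with symbols. The row that names no gene held 0% of the reads.

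Counts were filtered with filterByExpr, scaled by TMM and tested in R 4.3.3 with edgeR 4.0.16 (quasi-likelihood, Benjamini-Hochberg, threshold 0.05). The replicate number entered as a block, since the supplement names a dispersion estimate for paired replicates and triplicates made on different days. It does not say which libraries share a day, and equal numbers were taken to do so. Deviations from the group means of same-numbered libraries correlated at 0.48, 0.36 and 0.30. Standard errors (SE) were obtained as |log2 fold change| over the root of F, and the fit left 2 residual degrees of freedom. Log2 CPM used a prior count of 2. The day test is the F test of both replicate coefficients. The geminin to dup ratio (pseudocount 0.5) was tested by exact sign flips in Python 3.11.15. Replicates of a treatment differed beyond sampling noise (chi-square per degree of freedom 6.38 to 27.6). Luciferase dsRNA replicate 1 gave 21.35 and 27.6 with replicates 2 and 3, which gave 6.38 with each other. Among the imp dsRNA libraries the values were 6.86 to 13.2. The fit was also run on simulated data, with built-in changes larger than those of the licensing genes. That run does not cover changes of their size.

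BDGP6, a later build than dm3, gave positions and exon lengths. It was matched by identifier, or by symbol for 188 of the 9734 genes with a length. Named genes are the 10 licensing genes, Imp, the highest and lowest log2 fold change of each replication list and the 3 genes most like the mean licensing profile. Members, lists and this rule were chosen with earlier results of these data known. Alternatives were other scaling, filters, tests, no block and each replicate left out. Count intervals are exact Poisson and cover counting error only.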

Additional observations from a re-analysis of the deposited data

How the results depend on the processing

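No licensing gene was called by edgeR, DESeq2 (1.42.0) or limma-voom (limma 3.58.1) under any of the 9 alternatives. Of 90 values, 85 kept direction and call. The other 5 changed sign with a replicate left out, where log2 fold changes ran from -0.26 to 0.032 for Mcm2 and from -0.22 to 0.0051 for geminin (above 0 without replicate 1), and from -0.17 to 0.043 for Orc1, from -0.55 to 0.046 for Orc2 and from -0.16 to 0.20 for dup (above 0 without replicate 3). Without changing sign, Mcm7 ran from -0.33 (without replicate 2) to -0.042 (without replicate 3), Mcm3 from -0.58 (without replicate 1) to -0.19 (without replicate 2) and dpa from -0.22 (without replicate 1) to -0.10 (without replicate 2). The causes were not tested. The median over the 10 genes ran from -0.19 to -0.14. Mcm5 ran from -0.53 to -0.46, with an unadjusted p of 0.126 without replicate 2 and 0.0539 by DESeq2 with the block, and its lowest adjusted p was 0.154, by edgeR without replicate 3.

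Without the replicate block, 0 genes were called (72 at an unadjusted p under 0.05), the median over the licensing genes was -0.16, and Mcm5 was at -0.49 (unadjusted p = 0.0227, edgeR). The block changed no call of a licensing gene. Genes called between treatments numbered 0, against 4 without the filter, 1 by DESeq2 and 0 to 58 when a replicate was left out (58 without replicate 3). Genes called between days numbered 207, against 512 without the filter and 73 to 863 with a replicate left out. The summed helicase log2 ratio of -0.23 was -0.21 with DESeq2 size factors and -0.28 with total counts, scalings added after seeing the data. The geminin to dup difference ran from -0.39 to 0.14 with a replicate left out (0.14 without replicate 1). With 1081882 counts in the shallowest library, Mcm3 and Orc2 rested on as few as 24 and 20 counts.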

Other observations

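Orc3, the recognition complex subunit missing from the tested genes, was listed at 0 counts in all 6 libraries. In BDGP6 all 3315 bases of its exons are shared with the exons of CG34315 on the same strand, and CG34315 was also listed at 0 counts in every library. The authors kept only reads that overlapped a single gene, so these values carry no measure of Orc3 expression.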
